A study of Mus musculus with 18 samples.

Results

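Cadherins and protocadherins, the calcium-dependent adhesion receptors of the cell surface, were followed in bone marrow-derived mesenchymal stem cells (MSCs) of young and old mice and in old MSCs after indirect co-culture with young MSCs. The genes were chosen by name alone, as those called Cdh followed by a number or beginning with Pcdh, and a mean normalized count of at least 10 over the 18 libraries was required of those reported. Of the 27179 genes listed, 93 carried such a name and 50 passed the limit. These were 9 of 23 Cdh genes, 18 of 22 beta protocadherins (Pcdhb), 18 of 22 gamma protocadherins (Pcdhg), 5 of 12 protocadherins outside the clusters and 0 of 14 alpha protocadherins (Pcdha). Of the other 43, 37 had at least 1 read and 6 had 0 reads in all 18 libraries. Just inside the limit was Pcdhb13, with a mean of 10.6, and just outside it was Pcdhga8, with 9.42. In 33 of the 50 the mean was at least 10 in every group, and the other 17 passed through some groups only.

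MSCs were taken from the bone marrow of C57BL6 mice, which were male by the study's methods, 6 weeks old for the young group and 18 to 24 months for the old group. The old MSCs were grown alone, as 100000 cells a well, and the rejuvenated old MSCs, as the study names them, were old MSCs kept for 7 days across a 0.4 µm Transwell membrane from young MSCs, so that medium but not cells could pass. Polyadenylated RNA was sequenced from 6 libraries a group, named biological replicates, with 22936251 to 29559194 reads counted in genes per library. The labels do not say whether replicates came from separate animals, so the p-values measure the spread between these libraries, which may be technical. Age differed between the young and old groups, and the old and rejuvenated old groups differed by the presence of a second cell layer as well as by the age of its donors, and these cannot be told apart here.

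Cadherins bind the same or a related cadherin on the neighbouring cell through repeated extracellular domains that calcium holds stiff. The classical members grip catenins inside the cell and through them the actin cytoskeleton, and they hold mesenchymal, epithelial and endothelial sheets together. Protocadherins lack the catenin-binding tail. The clustered ones stand in a row on 1 chromosome, where each gene has its own promoter and first large exon, and a cell uses only some of them, which gives neurons their individual surface identity. In the gamma set each variable exon is joined to the same constant exons. The unclustered protocadherins are separate genes that signal to the cytoskeleton and modulate other adhesion receptors.

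Members were called in both directions between the age groups, and those called after co-culture were lower, with 1 exception. By the limma test, with Benjamini-Hochberg adjustment over all 14353 genes that reached the same limit and a threshold of 0.05, 22 of the 50 members were higher and 21 lower in young than in old MSCs. That is 86% of the members, beside 85.7% of all genes tested, (41.6% higher and 44.1% lower), so the count itself does not set the members apart. By size, 34 members (68%) were called at a log2 fold change of 1 or more in either direction, beside 31.9% of all genes. A member that passed the limit through the group where it is high had to differ, so this count gives no support. Of the 33 with a mean of at least 10 in every group, 14 were higher and 13 lower in young than in old MSCs, and 18 (54.5%) were called at that size, beside 24.9% of the 12800 genes with such means. Between rejuvenated old and old MSCs 27 members were lower and 1 was higher, together 56% beside 41.6% of all genes, of which 20.6% were lower and 21% higher. At a log2 fold change of 1 or more in either direction 4 members (8%) were called, beside 2.34%. This size count has the same limit as the one above and gives no support. In 18 members all rejuvenated old libraries lay below all old ones and in 0 above, together 36% beside 22% of all genes (11.6% and 10.4%). In this comparison the members' median log2 fold change was -0.50 beside 0.01 for all genes. The 50 are not independent, since the clustered genes share 1 locus and the gamma genes share exons. Of the 33 members with a mean of at least 10 in every group, 19 were lower in the rejuvenated old MSCs and 0 were higher by limma. At a log2 fold change of 1 or more 1 of them (3.03%) was called, beside 1.4% of the 12800 genes with such means. EdgeR and DESeq2 on recovered reads, run on all 50, likewise called 1 member higher, Cdh3, which is not among the 33. At an unadjusted p under 0.05 the count of members higher was also 1.

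**Figure D1:**
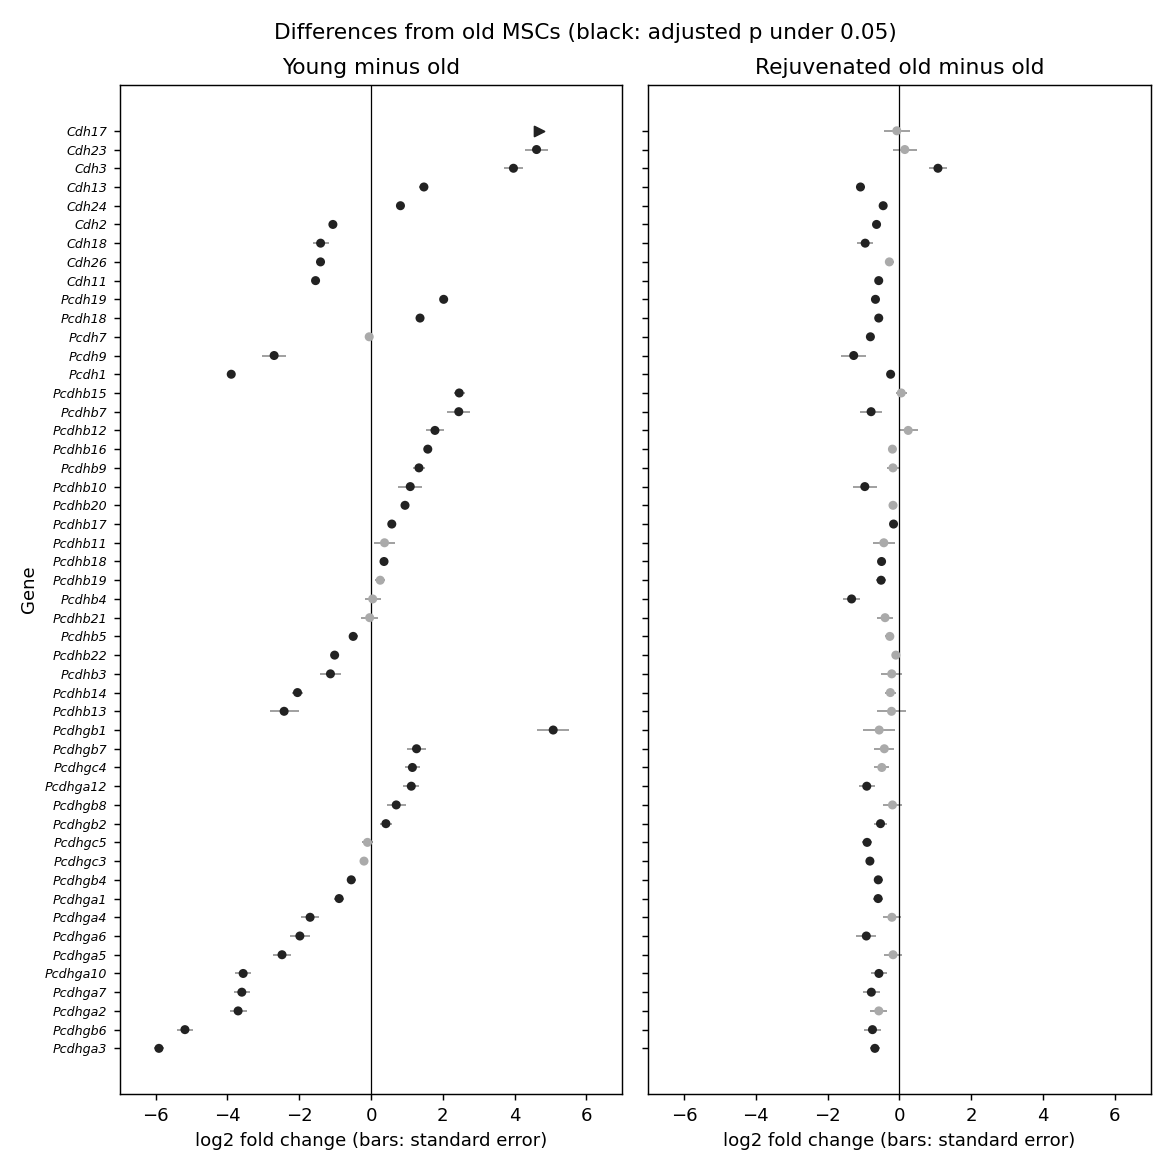
Log2 fold change of each of the 50 reported genes in young against old MSCs (left) and rejuvenated old against old MSCs (right), with bars of 1 standard error and black points where the adjusted p was under 0.05. Triangles are lower bounds. The left panel spreads to both sides of 0, and on the right 27 of the 28 black points lie below it, with Cdh3 above.

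A single library bears on the co-culture comparison. Rejuvenated old replicate 5 was the lowest of its group for 26 of the 50 members, a larger share than the 26.1% of all genes tested. Without it 23 members were lower and 1 was higher than in old MSCs, with a median log2 fold change of -0.44. Its part in the results beyond those values was not tested.

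The labels call all cultures MSCs, and markers of other cells were checked beside them. The summed macrophage markers ran from 920.6 to 1040 normalized counts in young, 13250 to 16820 in old and 13260 to 16410 in rejuvenated old libraries, and 10 of 10 were lower in young MSCs, where Adgre1 and Ptprc were at 0. Of 10 stromal markers 4 were higher and 6 lower in young than in old MSCs, and the stromal sum ran from 321300 to 347800 in young, 438900 to 464400 in old and 430800 to 462000 in rejuvenated old libraries. The skeletal muscle sum, from 22.4 to 39.2 in young, 2871 to 3086 in old and 2710 to 3211 in rejuvenated old libraries, had Pax7 and Myod1 at 0 in all groups. The 2 muscle markers that reached the limit were lower in young than in old MSCs, with a median log2 fold change of -6.01. The glial sum, from 598.3 to 669.3 in young and 663.6 to 860 in old, was 436.8 to 508 in rejuvenated old MSCs with Sox10 at 0 there and in old MSCs. The endothelial sum (295 to 410.3, 208.1 to 239.1 and 186.3 to 224.5 in young, old and rejuvenated old) had Cldn5 at 0, the epithelial sum (99.0 to 138, 403.1 to 635.6 and 513.2 to 688.8) had Esrp1 at 0, and the neuronal sum (31.3 to 48.4, 189 to 230.9 and 320.3 to 418.1) had Nefl at 0 in all groups. Of 5 endothelial markers that reached the limit, 4 were higher and 1 lower in young than in old MSCs, with a median of 1.87. Of 3 glial markers 2 were higher and 1 lower, and the 1 epithelial and 1 neuronal marker tested were lower. In young, old and rejuvenated old MSCs, 3, 3 and 4 of 10 endothelial markers had at most 3 reads in every library. These counts were 6, 7 and 7 of 10 for epithelial markers and 4, 5 and 4 of 8 for neuronal markers. They were 5, 4 and 4 of 7 for muscle and 2, 3 and 3 of 8 for glial markers. The markers named at 0 thus do not stand for their whole lists. Cdh1, Cdh5 and Cdh15, chosen after their values were seen, were near 0, with at most 2.85 normalized counts of Cdh1, the epithelial cadherin, 4.05 of Cdh5, the vascular endothelial cadherin, and 5.66 of Cdh15, the muscle cadherin, in any library. Other members known from epithelia were not, with Cdh3 at 126.5 to 164.3 in young MSCs, Cdh26 at 202.7 to 239.1 in old MSCs and Pcdh1 at 705.6 to 784.4 in old MSCs. The part of these cells in the results was not tested, and in bulk RNA fewer cells of a type and less RNA per cell cannot be told apart.

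The promoters of Pcdh19, Pcdh18 and Pcdh7 are shown, since these genes were the most counted protocadherins outside the clusters with a promoter in the RefSeq table of GRCm38.p6, which held 8 of the 50 members. Pcdh19 and Pcdh18 were both higher in young than in old MSCs, Pcdh7 was not called, and all 3 were lower after co-culture. Each window runs from 250 bases before to 50 after a start listed for the gene. The windows are on the minus strand at chrX:133688944-133689243 for Pcdh19, the minus strand at chr3:49757267-49757566 for Pcdh18, and the plus strand at chr5:57717831-57718130 for Pcdh7. The Pcdh7 window lies inside the gene's span, which begins at chr5:57716145, so it is not at the first base of the gene. Among the 8 members the windows of Cdh18, Cdh24 and Pcdh9 also lie inside their genes. Capitals mark CACCTG or its reverse complement CAGGTG, the E-box that the SNAI and ZEB repressors bind, and GGGCGG or its reverse complement CCGCCC, the GC box of the SP1 family.
Pcdh19: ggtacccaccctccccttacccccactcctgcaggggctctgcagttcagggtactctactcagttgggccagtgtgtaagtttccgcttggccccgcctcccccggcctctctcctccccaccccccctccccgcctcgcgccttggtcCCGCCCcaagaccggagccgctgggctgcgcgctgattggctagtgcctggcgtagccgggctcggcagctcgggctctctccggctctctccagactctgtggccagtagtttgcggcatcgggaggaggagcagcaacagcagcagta
Pcdh18: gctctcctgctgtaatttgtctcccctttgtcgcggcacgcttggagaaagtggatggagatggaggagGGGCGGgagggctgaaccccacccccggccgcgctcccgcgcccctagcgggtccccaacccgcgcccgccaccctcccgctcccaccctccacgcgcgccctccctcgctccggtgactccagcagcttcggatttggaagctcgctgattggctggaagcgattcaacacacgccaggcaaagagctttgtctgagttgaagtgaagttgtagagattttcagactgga
Pcdh7: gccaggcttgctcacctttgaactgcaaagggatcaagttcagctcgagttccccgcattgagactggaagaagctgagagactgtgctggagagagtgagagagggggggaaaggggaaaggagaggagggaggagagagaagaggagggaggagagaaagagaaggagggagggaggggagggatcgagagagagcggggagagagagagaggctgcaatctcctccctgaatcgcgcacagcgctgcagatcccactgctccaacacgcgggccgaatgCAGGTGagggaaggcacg
Both genes that were higher in young MSCs held 1 GC box and no E-box of these letters, and Pcdh7 held 1 E-box and no GC box. Among all 32851 promoters given there, 20.2% held the E-box and 35.7% the GC box on either strand, and the 2 motifs do not overlap in these windows. Among the 8 members the E-box was in Pcdh7 alone and the GC box in Cdh24, Pcdh18 and Pcdh19. Cdh24 and Cdh23 were also higher in young MSCs, and Cdh23 held neither motif. Cdh26, Pcdh9 and Cdh18 were lower in young MSCs and also held neither. Whether the motifs bear on the differences was not tested. GC content was 67.7% for Pcdh19, 63% for Pcdh18 and 59.3% for Pcdh7, beside a median of 52.7% over all promoters.

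Cdh11, the cadherin of osteoblasts and of mesenchymal cells, was the most abundant Cdh gene. Its normalized counts were 9186 at the lowest, 10310 at the median and 10980 at the highest in young MSCs, 27170, 30190 and 31170 in old MSCs, and 17020, 20710 and 21660 in rejuvenated old MSCs. The 3 groups did not overlap, with young lowest and old highest. Young MSCs were 2.92-fold lower than old (log2 fold change -1.55, SE 0.05, adjusted p = 7.2e-18) and rejuvenated old MSCs 1.49-fold lower than old (-0.57, SE 0.05, adjusted p = 1.39e-08). Per kb of exon held by no other gene, the group mean was 5300 in old MSCs, 3572 in rejuvenated old MSCs and 1817 in young MSCs.

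Cdh2, or N-cadherin, the classical cadherin of mesenchymal and neural cells, had the same order of groups. It ran from 516 through 557.5 to 635.3 in young, from 1063 through 1167 to 1368 in old, and from 577.4 through 794.5 to 863.7 in rejuvenated old MSCs. Old MSCs lay above both other groups, which overlapped through rejuvenated old replicate 5. The log2 fold change was -1.06 (SE 0.08, adjusted p = 1.43e-11) for young and -0.63 (SE 0.08, adjusted p = 1.07e-06) for rejuvenated old against old. Per kb, Cdh2 stood at 240.3 in old MSCs, far under the 5300 of Cdh11.

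Cdh13, or T-cadherin, is tethered to the membrane by a lipid anchor, has no intracellular tail and binds adiponectin. It ran from 2073 through 2429 to 2477 in young, from 799.4 through 847.3 to 916.2 in old, and from 239.3 through 423.2 to 556.1 in rejuvenated old MSCs. The groups did not overlap, and rejuvenated old MSCs were the lowest, farther from young than old MSCs were. Young MSCs were 2.78-fold higher than old (log2 fold change 1.47, SE 0.13, adjusted p = 2.13e-10) and rejuvenated old MSCs 2.12-fold lower than old (-1.08, SE 0.13, adjusted p = 4.73e-07). Against young MSCs the rejuvenated old ones were 5.88-fold lower (-2.56, SE 0.13, adjusted p = 8.37e-15).

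Cdh24, a type II cadherin that binds catenins, was ordered like Cdh13. It ran from 319.7 through 357.9 to 384.1 in young, 183.9 through 192.9 to 221.3 in old and 117.8 through 148.2 to 170.4 in rejuvenated old MSCs, with no overlap. Its log2 fold change was 0.82 (SE 0.09, adjusted p = 6.5e-09) for young and -0.45 (SE 0.09, adjusted p = 0.000217) for rejuvenated old against old.

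Cdh3, or P-cadherin, a classical cadherin of basal epithelia, was the single member called higher after co-culture. It ran from 126.5 through 139.6 to 164.3 in young, 4.01 through 9.15 to 11.8 in old and 11.3 through 15.8 to 40.2 in rejuvenated old MSCs. Rejuvenated old libraries overlapped the old range at their lower end and stayed below every young library. Their mean was 2.11-fold above old on the log2(value + 1) scale (log2 fold change 1.08, SE 0.26, adjusted p = 0.00201) and 7.42-fold below young (-2.89, SE 0.26, adjusted p = 5.08e-10).

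Cdh23, the cadherin of the tip links of inner-ear hair cells, and Cdh17, the liver-intestine cadherin, were counted mainly in young MSCs. In the other groups Cdh23 was low and Cdh17 was near the detection limit. Cdh23 ran from 168 through 201.7 to 237.2 in young, 2.15 through 9.31 to 14 in old and 2.79 through 9.55 to 14.4 in rejuvenated old MSCs. Young MSCs were 24.5-fold higher than old (log2 fold change 4.61, SE 0.33, adjusted p = 7.51e-12), and rejuvenated old and old MSCs overlapped over nearly their whole range (0.15, 95% confidence interval -0.53 to 0.84, adjusted p = 0.747). Cdh17 ran from 63.7 through 78.5 to 94.7 in young MSCs, and its medians were 0.455 in old and 0 in rejuvenated old MSCs, with at most 3 reads in any of those libraries. With the floor set at 3 reads per library, young MSCs were at least 25.7-fold higher than old and rejuvenated old MSCs at least 26.8-fold lower than young, and co-culture moved neither gene by a detectable amount.

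Cdh26, a cadherin of mucosal epithelia, and Cdh18, a type II cadherin best known from brain, were higher in old than in young MSCs. Cdh26 ran from 51.8 through 81.8 to 108.7 in young, 202.7 through 212.6 to 239.1 in old and 134.9 through 187.6 to 204.9 in rejuvenated old MSCs. It was 2.65-fold lower in young than in old (log2 fold change -1.41, SE 0.13, adjusted p = 7.27e-10) and not called between rejuvenated old and old (-0.28, SE 0.13, adjusted p = 0.0936), a difference that was called with only those groups fitted (adjusted p = 0.0239), with DESeq2 (adjusted p = 0.0295) and without young replicate 2 (adjusted p = 0.0309). Cdh18 ran from 6.40 through 13.7 to 19.2 in young, 30.1 through 35.5 to 42.3 in old and 12.3 through 19.3 to 24.5 in rejuvenated old MSCs. Old libraries lay above all others, with log2 fold changes of -1.40 (SE 0.22, adjusted p = 3.83e-06) for young and -0.95 (SE 0.22, adjusted p = 0.00148) for rejuvenated old. Young and rejuvenated old MSCs overlapped and were not called (0.45, SE 0.22, adjusted p = 0.0609), but the difference was called without young replicate 1 or 4 or rejuvenated old replicate 2 or 5 (adjusted p from 0.0253 to 0.0402).

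**Figure D2:**
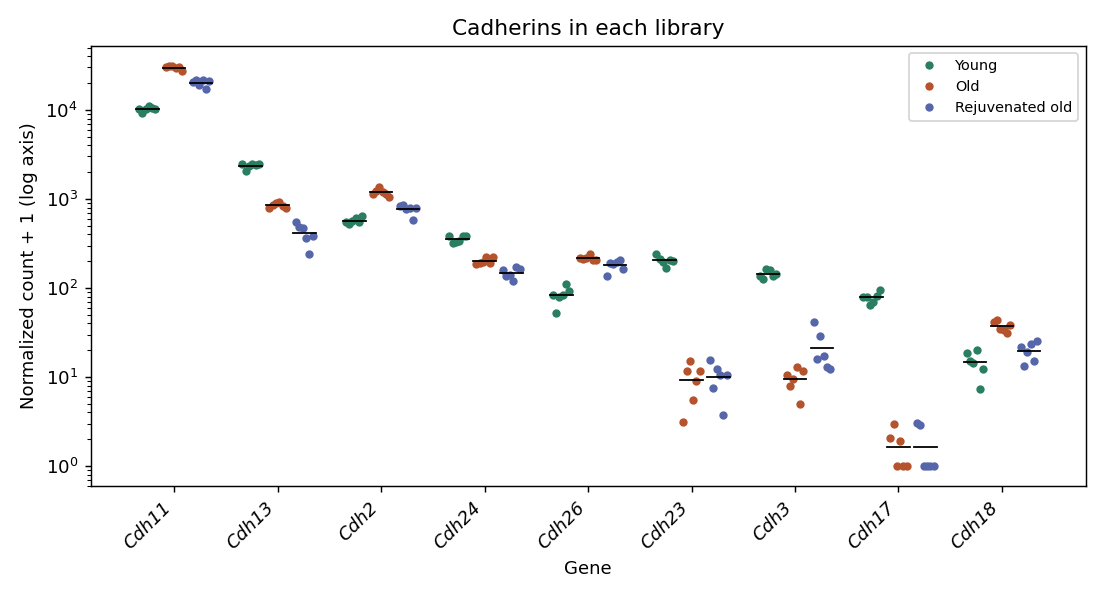
Normalized count plus 1 of the 9 reported Cdh genes, on a log axis, with 1 point for each library, 6 for each of the 3 groups, and a black line at the group mean. All 9 genes separate young from old libraries, and rejuvenated old libraries lie below old ones for Cdh11, Cdh2, Cdh13, Cdh24 and Cdh18.

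By counts, 5 of the 9 Cdh genes were higher and 4 lower in young than in old MSCs, and 5 were lower and 1 higher after co-culture. These counts are 100% and 66.7% of the Cdh genes, beside 85.7% and 41.6% of all genes tested. In all 9 the young and old libraries did not overlap, and over the 50 members this held for 19 above and 19 below, together 76% beside 73.9% of all genes (35.7% and 38.2%). In 5 of the 9 (55.6%) the rejuvenated old and old libraries did not overlap, beside 22% of all genes. Only 6 of the 9 had a mean of at least 10 in every group. Cdh23 and Cdh17 passed the limit through young MSCs alone, and Cdh3 through young and rejuvenated old MSCs. A member that passed the limit through the group where it is high had to differ, so these counts give no support.

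Of the protocadherins outside the clusters, all 5 were lower after co-culture than in old MSCs grown alone, and in all 5 the libraries of rejuvenated old and old MSCs did not overlap. Of all genes tested, 20.6% were called lower and 11.6% lay below without overlap in this comparison. Pcdh9 passed the limit through old MSCs alone, so its lower counts elsewhere were partly fixed by that limit and give no support. The other 4 had a mean of at least 10 in every group. Without rejuvenated old replicate 5 the call held for 4 of 5, with Pcdh1 lost. Against young MSCs the same genes went in both directions, with Pcdh19 and Pcdh18 lower, Pcdh1 and Pcdh9 higher and Pcdh7 lower in the rejuvenated old cells.

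Pcdh19, a delta-2 protocadherin that acts together with N-cadherin and is known from an X-linked epilepsy, was the most counted of the 5. It ran from 5163 through 5396 to 5653 in young, 1228 through 1283 to 1543 in old and 586.7 through 842.9 to 1158 in rejuvenated old MSCs. The groups did not overlap, young was the highest, and rejuvenated old lay farther from young than old did. Young MSCs were 4.07-fold higher than old (log2 fold change 2.02, SE 0.11, adjusted p = 2.26e-14) and rejuvenated old MSCs 1.58-fold lower than old (-0.66, SE 0.11, adjusted p = 2.9e-05). An antisense gene, Gm26851, overlaps its exons, and the strand setting of the counting is not stated.

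Pcdh18, the other delta-2 member, had the same order. It ran from 1499 through 1650 to 1818 in young, 586.8 through 620.5 to 705.3 in old and 367.9 through 435.9 to 474.2 in rejuvenated old MSCs, with no overlap. The log2 fold change was 1.37 (SE 0.06, adjusted p = 7.23e-16) for young and -0.57 (SE 0.06, adjusted p = 8.5e-08) for rejuvenated old against old.

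Pcdh7, a delta-1 protocadherin whose tail binds the phosphatase PP1 and the SET protein, was called with co-culture and not with age. It ran from 868.6 through 955.5 to 1055 in young, 938.9 through 989.1 to 1028 in old and 436.8 through 579.8 to 635.3 in rejuvenated old MSCs. Young and old ranges overlapped and the difference was not called (log2 fold change -0.05, 95% confidence interval -0.20 to 0.09, adjusted p = 0.499), and its sign turned when all libraries were set to the same total. Rejuvenated old MSCs lay below both, 1.75-fold under old (-0.80, SE 0.07, adjusted p = 4.87e-09) and 1.69-fold under young (-0.75, SE 0.07, adjusted p = 7.65e-10).

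Pcdh1 and Pcdh9, the other delta-1 members, were higher in old MSCs. Pcdh1, a protocadherin of airway epithelium, ran from 37.5 through 47.4 to 66.9 in young, 705.6 through 722.7 to 784.4 in old and 588.1 through 616.2 to 645.1 in rejuvenated old MSCs. Young MSCs were 14.9-fold lower than old (log2 fold change -3.89, SE 0.09, adjusted p = 7.34e-21), and the co-culture difference was small (-0.24, SE 0.09, adjusted p = 0.0416). That call was lost on leaving out any 1 old library or rejuvenated old replicate 1, 2, 3, 5 or 6, with adjusted p from 0.0528 to 0.0865. Pcdh9 ran from 0 through 3.18 to 5.59 in young, 15.1 through 23.6 to 28.0 in old and 5.71 through 8.36 to 13.5 in rejuvenated old MSCs. Its log2 fold change was -2.70 (SE 0.34, adjusted p = 1.49e-07) for young and -1.27 (SE 0.34, adjusted p = 0.00478) for rejuvenated old against old, at counts where single reads weigh.

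**Figure D3:**
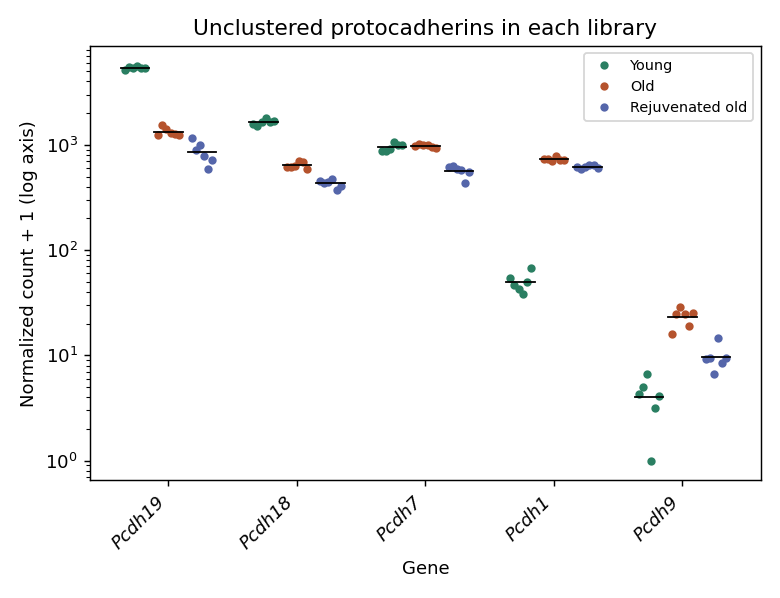
Normalized count plus 1 of the 5 reported protocadherins outside the clusters, on a log axis, with 1 point for each library in the 3 groups and a black line at the group mean. Rejuvenated old libraries lie below old libraries for all 5 genes, while young libraries lie above old for Pcdh19 and Pcdh18 and below for Pcdh1 and Pcdh9.

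The clustered genes lie on chromosome 18, which holds 38 of the 50 members. The other 349 genes tested on that chromosome had a median log2 fold change of -0.24 in young and -0.01 in rejuvenated old against old MSCs. Reads on the shared constant exons of the gamma genes may be counted for some of them only, and Pcdhgb1 had 924 reads over all libraries where Pcdhgc3 had 43152, so such reads were not given to every gamma gene. Values of single gamma genes are therefore uncertain, as are those of Pcdhb12, Pcdhga1, Pcdhga7, Pcdhga10, Pcdhgb7, Pcdhga12 and Pcdhgc3, whose exons an antisense gene overlaps.

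The gamma genes together were highest in old MSCs. Their summed normalized counts ran from 3057 through 3681 to 3866 in young, 4414 through 4829 to 5236 in old and 1847 through 3040 to 3353 in rejuvenated old MSCs. The rejuvenated old sum was on average 60.4% of that in old MSCs, and without replicate 5, which held the lowest value, it ran from 2854 to 3353, still below every old library. Most gamma reads came from Pcdhgc3, a C-type gene at the end of the cluster that is used broadly across tissues.

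The share of each gene in the gamma sum did not overlap between young and old libraries for 16 of 18 reported genes, and did not overlap between rejuvenated old and old for 2 of 18. Shares have no such figure over all genes tested. By level, libraries did not overlap in 77.8% and 33.3% of the 18 gamma genes in these comparisons, beside 73.9% and 22% of all genes. Only 11 of the 18 had a mean of at least 10 in every group, so these level counts give no support. As a description, 21.7 percentage points of the gamma sum lay with other genes in young than in old MSCs, and 3.43 points in rejuvenated old than in old MSCs. Pcdhgc3 held 73% ± 0.659 (SD, n = 6) of the sum in young MSCs, 61.4% ± 0.74 in old MSCs and 58.6% ± 1.37 after co-culture. Pcdhga3 held 0.148% ± 0.0204, 7.77% ± 0.657 and 8.15% ± 0.528 in the same order, and Pcdhgb6 held 0.197% ± 0.104, 5.48% ± 0.371 and 5.48% ± 0.329. Pcdhgb1 had the opposite course, with 4.37% ± 0.355 in young MSCs, 0.0835% ± 0.0487 in old MSCs and 0.115% ± 0.148 after co-culture. The young libraries thus held Pcdhgb1 where both old groups held Pcdhga3 and Pcdhgb6, and the share ranges of these 3 genes overlapped between old and rejuvenated old MSCs.

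The levels of Pcdhga3 and Pcdhgb6, unlike their shares, were lower after co-culture. Pcdhga3 ran from 3.98 through 5.11 to 6.53 in young, 333.8 through 363.7 to 422.3 in old and 161.1 through 250.5 to 268.8 in rejuvenated old MSCs, and young MSCs were 60.1-fold below old (log2 fold change -5.91, SE 0.13, adjusted p = 1.47e-21). Pcdhgb6 ran from 2.99 through 7.14 to 11.2, from 241.8 through 250.8 to 316.3 and from 95.0 through 165.3 to 200.8 in the same groups, with log2 fold changes of -5.19 (SE 0.23, adjusted p = 1.04e-15) for young and -0.75 (SE 0.23, adjusted p = 0.0123) for rejuvenated old against old. Both genes thus had few reads in young libraries and rejuvenated old libraries below old ones, and the co-culture change of Pcdhga3 was -0.68 (SE 0.13, adjusted p = 0.000211). Pcdhgb1 ran from 134.5 through 151.1 to 171.6 in young, 1.82 through 3.12 to 6.89 in old and 0 through 1.42 to 13.4 in rejuvenated old MSCs, with young 33.7-fold above old (5.08, SE 0.44, adjusted p = 2.93e-10) and no call between the old groups (-0.56, SE 0.44, adjusted p = 0.335), a difference that was called without rejuvenated old replicate 1 (adjusted p = 0.0249).

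Pcdhgc3 and Pcdhgb4, with Pcdhga3 the most counted gamma genes, were both lower after co-culture. Pcdhgc3 ran from 2216 through 2672 to 2847 in young, 2658 through 2980 to 3219 in old and 1051 through 1769 to 2016 in rejuvenated old MSCs. Young and old overlapped and were not called (log2 fold change -0.20, 95% confidence interval -0.42 to 0.03, adjusted p = 0.103), a difference that was called when only those groups were fitted (adjusted p = 0.009) and without rejuvenated old replicate 5 (adjusted p = 0.00765). Rejuvenated old lay below both, 1.76-fold under old (-0.82, SE 0.11, adjusted p = 3.33e-06). Pcdhgb4 ran from 160.9 through 185.3 to 205.7 in young, 247.8 through 267.3 to 321.8 in old and 111.8 through 186.5 to 228.4 in rejuvenated old MSCs. Old MSCs lay above both other groups, by -0.55 (SE 0.12, adjusted p = 0.000286) for young and -0.59 (SE 0.12, adjusted p = 0.0006) for rejuvenated old, and those did not differ by a called amount (-0.03, SE 0.12, adjusted p = 0.795).

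The largest co-culture differences of the gamma set were those of Pcdhga6 and Pcdhga12, which went opposite ways with age. Pcdhga6 ran from 4.47 through 9.68 to 19.6 in young, 31.8 through 44.1 to 52.7 in old and 11.2 through 23.0 to 37.7 in rejuvenated old MSCs, with -0.92 (SE 0.28, adjusted p = 0.0118) after co-culture. Pcdhga12 ran from 42.5 through 55.7 to 72.9 in young, 19.7 through 24.6 to 32.3 in old and 6.66 through 12.9 to 21.6 in rejuvenated old MSCs, with -0.91 (SE 0.22, adjusted p = 0.00201) after co-culture. Both overlapped between the old groups. Over the 18 reported gamma genes, 6 were higher and 10 lower in young than in old MSCs, and 11 were lower and 0 higher after co-culture by limma, or 88.9% and 61.1% beside 85.7% and 41.6% of all genes tested. Without rejuvenated old replicate 5, 10 were lower. These counts have the same limit as the level counts of the gamma genes above.

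**Figure D4:**
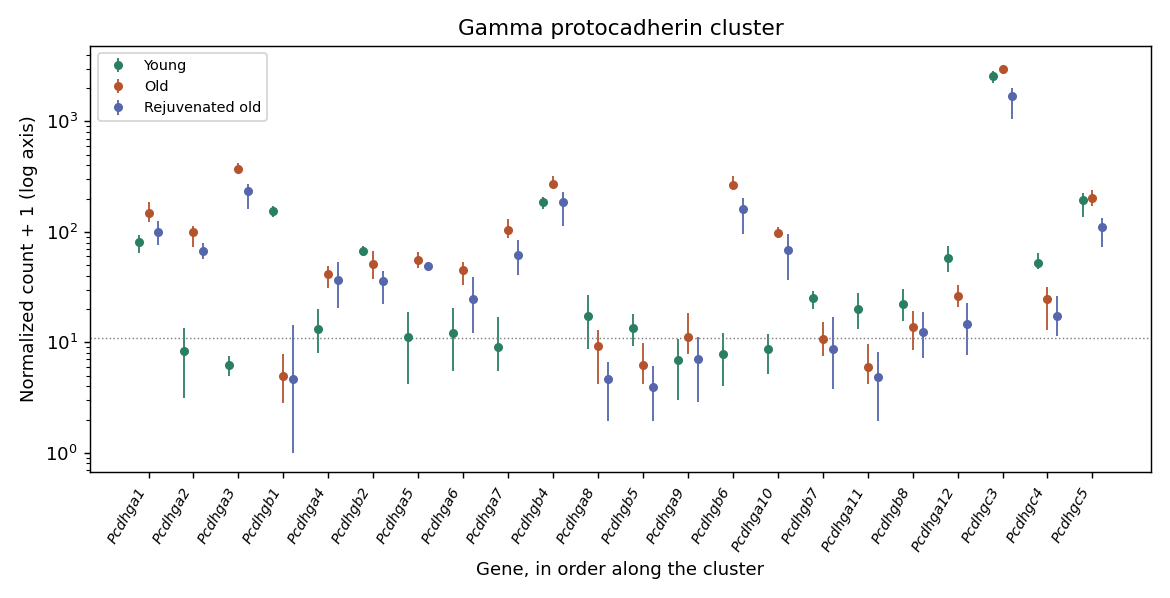
Normalized count plus 1 of all 22 gamma protocadherins in their order along the cluster, on a log axis, with points at the mean of 6 libraries, bars from the lowest to the highest library and a dotted line at the limit of a mean of 10. Pcdhgb1 stands high in young MSCs only, Pcdhga3 and Pcdhgb6 stand high in both old groups, and Pcdhgc3 is the most counted gene in all 3 groups.

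The beta genes, mostly single-exon genes with no shared constant exons, were highest in young MSCs as a sum. It ran from 2433 through 2596 to 2674 in young, 1886 through 1984 to 2072 in old and 1606 through 1709 to 1819 in rejuvenated old MSCs, and the groups did not overlap. Rejuvenated old MSCs held on average 87% of the old beta sum, where the same figure for the gamma genes was 60.4%. Replicate 5, at 1687, lay within the range of the other rejuvenated old libraries, which was 1606 to 1819.

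Shares of the beta sum did not overlap between young and old libraries for 12 of 18 reported genes and between rejuvenated old and old libraries for 1 of 18, and 26.3 and 3.62 percentage points of the sum lay with other genes in those 2 comparisons. Shares have no such figure over all genes. By level, libraries did not overlap in 61.1% and 11.1% of the 18 beta genes, beside 73.9% and 22% of all genes, so the level counts do not set the beta genes apart. Pcdhb22 held 10.1% ± 0.798 (SD, n = 6) of the beta sum in young MSCs, 26.6% ± 1.73 in old MSCs and 28.5% ± 1.55 after co-culture. Pcdhb16 held 17.2% ± 0.35, 7.46% ± 0.221 and 7.56% ± 1.07, and Pcdhb17, the most counted, 31.8% ± 0.949, 27.7% ± 0.773 and 28.6% ± 1.41. The second place in the beta set thus went to Pcdhb16 in young and to Pcdhb22 in both old groups.

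By level, Pcdhb17 ran from 790.1 through 808.6 to 866.5 in young, 505.4 through 548.7 to 583.5 in old and 462.4 through 482.3 to 533.3 in rejuvenated old MSCs. It was higher in young (log2 fold change 0.58, SE 0.05, adjusted p = 4.8e-11) and slightly lower after co-culture (-0.16, SE 0.05, adjusted p = 0.00752), where the old groups overlapped. Pcdhb22 ran from 227.1 through 259.3 to 296.1, 482.9 through 525.1 to 567 and 438.6 through 506.7 to 522.5 in young, old and rejuvenated old MSCs. It was lower in young than in old (-1.01, SE 0.06, adjusted p = 6.7e-13) and not called after co-culture (-0.10, SE 0.06, adjusted p = 0.242). Pcdhb16 ran from 416.4 through 436.7 to 471.7, 141.9 through 145.9 to 156.6 and 112.2 through 126.5 to 168.0 in the same order. It was 2.99-fold higher in young than in old (1.58, SE 0.08, adjusted p = 8.12e-15) and not called after co-culture (-0.19, SE 0.08, adjusted p = 0.0558), though it was without rejuvenated old replicate 4 (-0.27, adjusted p = 0.00203), with a mean of at least 50 required (adjusted p = 0.0482), with libraries set to the same total (0.0325) and with 1 prior variance for all genes (0.0426).

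The largest age differences of the beta set were those of Pcdhb15 and Pcdhb7, both higher in young MSCs. Pcdhb15 ran from 129.5 through 150.6 to 197.7 in young, 23.1 through 27.4 to 34.5 in old and 23.6 through 25.8 to 44.4 in rejuvenated old MSCs, with a log2 fold change of 2.46 (SE 0.15, adjusted p = 4.4e-13) for young against old. Pcdhb7 ran from 38.1 through 46.7 to 54.4, 3.01 through 8.48 to 14.0 and 1.89 through 4.22 to 8.24, with 2.45 (SE 0.31, adjusted p = 1.84e-07) for young against old. In both, all young libraries lay above all others.

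After co-culture the largest differences were those of Pcdhb4 and Pcdhb10. Pcdhb4 ran from 13.2 through 18.2 to 25.0 in young, 10.8 through 18.2 to 26.4 in old and 4.12 through 5.75 to 9.44 in rejuvenated old MSCs, where it fell below every other library (log2 fold change -1.33, SE 0.23, adjusted p = 6.33e-05). Young and old did not differ by a called amount (0.05, 95% confidence interval -0.42 to 0.52, adjusted p = 0.853). Pcdhb10 ran from 14.4 through 20.6 to 40.3, 5.38 through 10.4 to 12.7 and 0.931 through 5.66 to 8.56 in the same order, with -0.96 (SE 0.34, adjusted p = 0.0261) after co-culture, and lost that call without rejuvenated old replicate 5 (-0.66, adjusted p = 0.0738). Leaving out any 1 of old replicates 2 to 4 or rejuvenated old replicate 4 also ended it, with adjusted p from 0.0518 to 0.0584. Over the 18 beta genes, 9 were higher and 5 lower in young than in old MSCs, and 6 were lower and 0 higher after co-culture by limma, and without rejuvenated old replicate 5 the 6 became 4. These counts are 77.8% and 33.3% of the beta genes, both under the 85.7% and 41.6% of all genes tested.

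**Figure D5:**
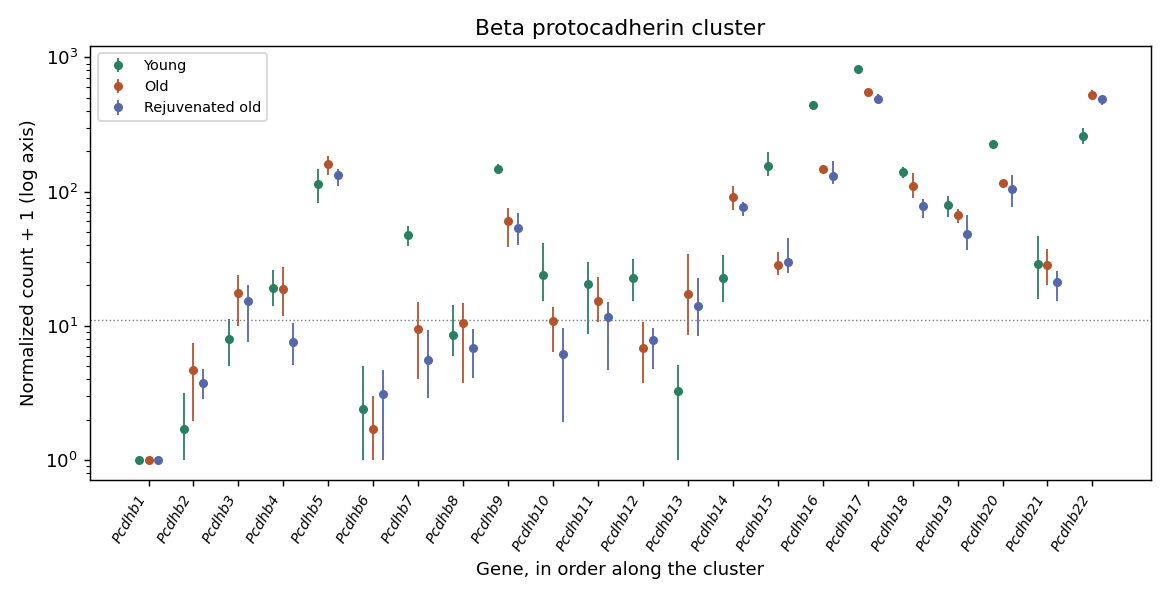
Normalized count plus 1 of all 22 beta protocadherins in their order along the cluster, on a log axis, with points at the mean of 6 libraries, bars from the lowest to the highest library and a dotted line at the limit of a mean of 10. Young and old means stand apart in both directions, while old and rejuvenated old means lie close together for most genes.

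The alpha genes, a set used mainly in neurons, stayed under the limit. Their sum over 14 genes ran from 0 through 2.21 to 6.40 in young, 37.6 through 50.3 to 61.1 in old and 6.52 through 19.7 to 27.8 in rejuvenated old MSCs. The 3 groups did not overlap, but young and rejuvenated old MSCs came close. The highest young library had 6 summed reads and the lowest rejuvenated old library 7. Pcdha9, Pcdhac2 and Pcdha12 were the most counted, with means of 20.0, 12.5 and 11.9 in old and 7.16, 6.57 and 2.41 in rejuvenated old MSCs, while Pcdha9 and Pcdha12 were at 0 in all young libraries. With 6 libraries at 0, the floor of 3 reads per library limits what can be said of them. Other members under the limit went both ways, and those named here were chosen after their values were seen. Cdh19 and Pcdh10 were counted mainly in the old groups. Their means were 3.76 and 6.28 in old and 0 and 0.166 in young MSCs. Pcdh11x and Cdh22 were counted mainly in young MSCs. Pcdh11x ran from 4.26 to 16.8 in young libraries and was at 0 in the other 12, and Cdh22 ran from 11.7 to 38.1 in young libraries and up to 2.15 in old and 6.18 in rejuvenated old ones.

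Between rejuvenated old and young MSCs, 18 of the 50 members were higher and 28 lower in the rejuvenated old cells, or 92% beside 85.6% of all genes tested (44.1% higher and 41.5% lower). At a log2 fold change of 1 or more in either direction 32 members (64%) were called, beside 31%. A member that passed the limit through the group where it is high had to differ, so this size count gives no support. Of the 33 members with a mean of at least 10 in every group, 10 were higher and 19 lower. At that size 16 of them (48.5%) were called, beside 23.9% of the 12800 genes with such means. In 14 of the 50 all rejuvenated old libraries lay above all young ones and in 25 below, together 78% beside 70.5% of all genes (36.5% and 34%). Leaving aside Cdh17, whose fold is a bound, the largest differences on either side were those of Pcdhga3, at 5.23 (SE 0.13, adjusted p = 1.54e-20), and Pcdhgb1, at -5.64 (SE 0.44, adjusted p = 4.63e-11). Of the beta genes, Pcdhb7 and Pcdhb15 differed most, at -3.23 (SE 0.31, adjusted p = 1.92e-09) and -2.40 (SE 0.15, adjusted p = 7.12e-13). This comparison shares its libraries with the others and gives no separate support to them.

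The proteins that work with cadherins went both ways with age. Of 15 catenins and junction partners tested, 6 were higher and 8 lower in young than in old MSCs, and 3 were higher and 3 lower after co-culture, with a median log2 fold change of -0.10 and 0.00 beside -0.02 and 0.01 for all genes. Of all genes tested, 41.6% were higher and 44.1% lower in young, and 21% higher and 20.6% lower after co-culture. These shares also stand beside the lists that follow. Ctnnd1, the p120 catenin that keeps cadherins at the surface, ran from 5400 through 5774 to 5889 in young, 18310 through 19290 to 19540 in old and 22290 through 22930 to 24590 in rejuvenated old MSCs. It was lower in young than in old (-1.74, SE 0.03, adjusted p = 3.16e-23) and higher after co-culture (0.28, SE 0.03, adjusted p = 2.41e-07), while Cdh11 and Cdh2, its partners, were lower. Arvcf, its relative, was lower in young (-1.11, SE 0.05, adjusted p = 2.72e-15), as was the immunoglobulin-like adhesion protein Nectin4 (-0.82, SE 0.25, adjusted p = 0.00414), and Tjp1, the scaffold ZO-1, was higher (1.26, SE 0.06, adjusted p = 1.99e-15).

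Of 8 repressors of classical cadherin genes tested, 4 were higher and 4 lower in young than in old MSCs, and 4 were higher and 1 lower after co-culture. The medians were 0.19 and 0.11, beside -0.02 and 0.01 for all genes. Zeb1 and Tcf4 were higher in young (1.29, SE 0.03, adjusted p = 5.84e-20, and 1.52, SE 0.05, adjusted p = 6.47e-19), and Zeb2 and Snai2 were lower (-1.66, SE 0.05, adjusted p = 2.13e-18, and -1.46, SE 0.04, adjusted p = 1.03e-20). After co-culture Zeb1 and Zeb2 were higher by 0.16 and 0.28 and Tcf4 lower (-0.18), with adjusted p of 0.000881, 0.000204 and 0.00363.

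Of 13 proteases that cut or mature cadherins, 4 were higher and 8 lower in young than in old MSCs, and 1 was higher and 7 lower after co-culture. The medians were -0.40 and -0.14, beside -0.02 and 0.01 for all genes. Adam10, which sheds N-cadherin and the gamma protocadherins and was chosen after its values were seen, ran from 1042 through 1149 to 1376 in young, 886 through 990.7 to 1101 in old and 366 through 558.9 to 703.3 in rejuvenated old MSCs. Rejuvenated old libraries lay below all others (-0.85, SE 0.11, adjusted p = 1.57e-06). The proprotein convertase Pcsk6 ran from 1227 through 1298 to 1339 in young, 2496 through 2582 to 2640 in old and 4041 through 4266 to 4906 in rejuvenated old MSCs, lower in young (adjusted p = 2.05e-16) and higher after co-culture (0.76, SE 0.04, adjusted p = 2.04e-12), and Pcsk5 was at least 10.1-fold lower in young than in old MSCs. The gamma-secretase parts Psenen and Psen2 were higher and lower in young (1.29, SE 0.07, adjusted p = 1.27e-14, and -1.27, SE 0.05, adjusted p = 4.45e-16).

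Of 17 regulators of clustered protocadherin choice, which loop, hold or methylate its promoters, 13 were higher and 1 lower in young than in old MSCs, with a median of 0.54, and 2 were higher and 3 lower after co-culture, with a median of 0.01. Of all genes tested, 41.6% were higher and 44.1% lower in young, with a median of -0.02. After co-culture 21% were higher and 20.6% lower, with a median of 0.01. The cohesin subunit Rad21 (0.82, SE 0.05, adjusted p = 2.64e-13), the cohesin loader Nipbl (0.66, SE 0.05, adjusted p = 5.08e-12) and the methyltransferase Dnmt3b (0.79, SE 0.09, adjusted p = 1.83e-08) were higher in young, and Dnmt3a was lower (-0.84, SE 0.06, adjusted p = 5.21e-12). Ctcf, which marks the promoter that is used and was chosen after its values were seen, was not called in either comparison (0.01, adjusted p = 0.866, and 0.04, adjusted p = 0.449).

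Of 15 signalling partners of protocadherins, 4 were higher and 8 lower in young than in old MSCs, and 1 was higher and 6 lower after co-culture. The medians were -0.34 and -0.06, beside -0.02 and 0.01 for all genes. Ptk2b, the kinase PYK2 that clustered protocadherins inhibit, ran from 41.2 through 55.7 to 66.8 in young, 1773 through 1868 to 1960 in old and 1316 through 1341 to 1430 in rejuvenated old MSCs. It was lower in young (-5.06, SE 0.08, adjusted p = 1.57e-24) and after co-culture (-0.46, SE 0.08, adjusted p = 4.5e-05). The actin regulator Wasf2 was lower in young (-0.97, SE 0.08, adjusted p = 8.84e-11) and after co-culture (-0.38, SE 0.08, adjusted p = 0.000588), the GTPase Rap1b was lower in young (-1.95, SE 0.08, adjusted p = 7.72e-17), and Wasf3 was at least 9.07-fold lower in young than in old MSCs.

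Of 12 other genes of the cadherin superfamily tested, 3 were higher and 9 lower in young than in old MSCs, and 1 was higher and 5 lower after co-culture. The medians were -1.71 and -0.20, beside -0.02 and 0.01 for all genes. Dchs1, the ligand of FAT4, was higher in young (4.68, SE 0.28, adjusted p = 2.8e-13) and lower after co-culture (-0.82, SE 0.28, adjusted p = 0.023). The receptor kinase Ret was lower in young (-6.96, SE 0.15, adjusted p = 8.32e-22). The desmosomal cadherin Dsc2, at 0 in all young libraries, was at least 39.7-fold lower in young than in old MSCs, and Fat3, a giant cadherin, at least 17.8-fold lower.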

How the data were processed

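The deposited values are a normalized signal, which is the read number of a gene over the size factor of its library. According to the methods and labels, the authors aligned reads to mm10 with HISAT2, then used StringTie, featureCounts and DESeq2 on the Galaxy platform, and versions, annotation, strand setting and filters are not given in the sources used here. TruSeq Stranded mRNA libraries were made, and replicates were not pooled. Whole reads were recovered for 100% of the values, within 0.01 of a whole number.

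Differences in log2(value + 1) were tested by limma 3.58.1 (R 4.3.3), with 1 mean for each of 3 groups, a prior variance that follows the mean, and Benjamini-Hochberg adjustment over the 14353 genes whose mean reached 10. Log2 fold changes are on that scale, where the changes of low genes come out too small, and are first-named minus second-named group. A fold against a group with at most 3 reads in every library is a lower bound set at 3 reads per library. Counts and floors cover counting error only. Tests were checked on simulated data.

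Alternatives were pseudocounts of 0.5 and 10, no filter, a mean of at least 50, scaling to the same total or 75th percentile, a fit of 2 groups, 1 prior variance, a replicate block, an adjusted p under 0.01, edgeR 4.0.16 and DESeq2 1.42.0 on recovered reads, and leaving out each library. Exon lengths came from the GENCODE annotation, positions and promoters from RefSeq (GRCm38.p6), with all 93 members matched. Python 3.11.15, pandas 2.3.3, numpy 2.4.6 and matplotlib 3.10.9 were used.

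The members, gene lists and marker lists were chosen with earlier results of these data known. Cdh genes and unclustered protocadherins are given in full. Of each clustered set the 3 with the highest mean and the 2 with the largest fold change in each comparison are named, and of each partner list up to 4 genes with the largest called fold change.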

Additional observations from a re-analysis of the deposited data

Results flagged for a closer look

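In 16 of the 150 groups of 6 libraries (50 genes in 3 groups), the highest or lowest library stood apart from its group by Dixon's criterion, and chance flags about 5% of groups. Values are normalized counts. Rejuvenated old replicate 5 was the low library for Cdh2 (577.4, beside 762.1 to 863.7 in the other 5 libraries), Pcdhb11 (3.725, beside 10.38 to 14.15 in the other 5 libraries), Pcdhgb6 (94.99, beside 161.3 to 200.8 in the other 5 libraries), Pcdhgc3 (1051, beside 1695 to 2016 in the other 5 libraries). Rejuvenated old replicate 4 was the high library for Pcdh9 (13.52, beside 5.709 to 8.495 in the other 5 libraries), Pcdhb15 (44.42, beside 23.58 to 30.45 in the other 5 libraries), Pcdhb16 (168, beside 112.2 to 131.3 in the other 5 libraries). Pcdhgb1 was at 13.39 in rejuvenated old replicate 1, beside 0 to 4.717 in the other rejuvenated old libraries. Pcdhgb7 was at 16.04 in rejuvenated old replicate 6, beside 2.794 to 7.726 in the other rejuvenated old libraries. Pcdhb10 was at 40.26 in young replicate 1, beside 14.42 to 22.35 in the other young libraries. Pcdhb15 was at 197.7 in young replicate 6, beside 129.5 to 153.1 in the other young libraries. Pcdhga7 was at 15.99 in young replicate 5, beside 4.47 to 7.208 in the other young libraries. Pcdhgc4 was at 63.84 in young replicate 6, beside 44.7 to 51.16 in the other young libraries. Cdh13 was at 2073 in young replicate 2, beside 2342 to 2477 in the other young libraries. Pcdh1 was at 784.4 in old replicate 4, beside 705.6 to 734.5 in the other old libraries. Cdh11 was at 27170 in old replicate 6, beside 29820 to 31170 in the other old libraries.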

How the results depend on the processing

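Refitting without each library gave 21 to 23 members higher and 21 to 22 lower in young than in old MSCs, 1 higher and 23 to 28 lower after co-culture, and 17 to 19 higher and 27 to 29 lower in rejuvenated old than in young. With a mean of at least 50, which leaves 32 members, 14 were higher in young than in old and 18 lower in rejuvenated old than in young. The replicate numbers did not pair the libraries (0 of 6 pairs correlated over 0.1 in each pair of groups, and 0 of 6 libraries correlated best with their own number), and with the replicate number as a block 26 members were lower and 1 higher in rejuvenated old than in old, and 22 higher and 21 lower in young than in old. The block also gave a call to Cdh18 in rejuvenated old against young (0.455, adjusted p = 0.0448).

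Calls of Pcdhb7, Pcdhga10 and Pcdh1 after co-culture lay near the threshold and were lost under several settings, with adjusted p of 0.0545 for Pcdhb7 with edgeR, 0.0539 for Pcdhga10 with a pseudocount of 0.5 and 0.0592 for Pcdh1 without a filter, and Pcdhga2 gained a call with edgeR (-0.58, adjusted p = 0.00204) and DESeq2 (-0.59, adjusted p = 0.000125). These causes were not tested. Reversals concerned differences that were not called. For young against old, Pcdh7 was 0.0237 with the same total, and Pcdhb21 was 0.0339 with the same total, 0.0318 with edgeR and 0.0373 with DESeq2. Without single libraries, log2 fold changes ran from -0.194 to 0.114 for Pcdhb21 and from -0.0827 to 0.161 for Pcdhb4 in young against old, from -0.125 to 0.41 for Cdh23, -0.387 to 0.0163 for Pcdhb13, -0.0726 to 0.122 for Pcdhb15 and -0.287 to 0.127 for Cdh17 after co-culture, and from -0.102 to 0.103 for Pcdhgb4 in rejuvenated old against young.

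Depth limits Pcdh9 and the alpha genes in young MSCs, Cdh17 and Pcdhgb1 in both old groups, and the 6 gamma genes with a mean under 10 in young MSCs, where a few reads make up a value. No old MSCs cultured across from old MSCs were analysed here.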
